A study of Arabidopsis with 36 samples.

Results

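The genes described are 9 loci of Arabidopsis thaliana that encode cytosolic translation elongation and termination factors, out of 33035 loci in the gene table. They were chosen by locus name and are the 4 genes of eEF1A (AT1G07920, AT1G07930, AT1G07940 and AT5G60390), the eEF2 gene LOS1 (AT1G56070), the eIF5A genes ELF5A-1 (AT1G13950) and FBR12 (AT1G26630), and the eRF1 genes ERF1-1 (AT5G47880) and ERF1-3 (AT3G26618). All 9 were in the table and all 9 were among the 20171 nuclear genes tested. By the reference annotation 3 of the eEF1A genes lie on chromosome 1, with AT1G07930 directly next to AT1G07940, and AT5G60390 lies on chromosome 5.

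During elongation eEF1A carries aminoacyl-tRNA to the ribosome as a GTP-bound complex, and eEF2 uses GTP to move the ribosome along the mRNA after each peptide bond. eIF5A, named as an initiation factor but acting mainly in elongation and termination, carries the modified amino acid hypusine and helps the ribosome to form difficult peptide bonds. At a stop codon eRF1 enters the ribosome in place of a tRNA and releases the finished protein. The mRNAs of such factors are themselves translated, so their place in a polysome gradient can be read like that of any other mRNA: light polysomes hold mRNAs with few ribosomes and heavy polysomes hold mRNAs with many.

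The series comprises 36 mock-treated libraries of seedlings aged 11 days. Its 4 lines are Col-2 (the wild type), overexpressors of AtY34 and of AtYchF1, and a knockdown mutant of AtYchF1. For every line total RNA, light polysomes and heavy polysomes were sequenced, with 3 libraries each. The libraries used were the 18 of Col-2 and of the AtY34 overexpressor, since their columns could be tied to samples by name; the 2 AtYchF1 lines are not analysed here. The promoter behind the AtY34 transgene, what AtY34 encodes, and whether the line is 1 clone are not stated in the labels. Whether replicates were grown separately is not stated either, so the p-values reflect the spread between these libraries and that spread may be technical.

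Values are TPM, the length-corrected share of each gene in a library, divided by 1 scaling factor per library (scaled TPM). The factors ran from 0.736 to 1.39. Library depth is unknown, since TPM keep no counts, and each library had 16035 to 19398 loci above 0. The green tissue markers RBCS1A, CAB2 and PSBO1 were abundant in every library, while of 3 flower markers AP3 was at 0 in 18, AG in 17 and PI in 9 of the 18 libraries, PI reaching 11.5 scaled TPM. AtYchF1 (AT1G30580), after which the series is named, ran from 19.9 to 52.7 scaled TPM in wild type and from 161 to 243 in the AtY34 line. These are bulk samples, in which fewer cells of a type and less RNA per cell cannot be told apart.

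The 9 genes fell into an abundant group of 6 and a scarce group of 3. AT5G60390 was the highest, with a median of 468.5 scaled TPM over the 18 libraries and a range of 343 to 505.5. FBR12 was next, with a median of 277 and a range of 213 to 360.4, and it lay below AT5G60390 in all 18 libraries. The eEF2 gene followed with a median of 128, below FBR12 in every library. Then came AT1G07940, AT1G07920 and AT1G07930, with medians of 108, 102 and 90.6 scaled TPM. The order among these neighbours was not fixed: eEF2 exceeded AT1G07940 in 14 of 18 libraries, AT1G07940 exceeded AT1G07920 in 11, and AT1G07920 exceeded AT1G07930 in 14. The release factor genes were much lower, with medians of 11.8 for ERF1-1 and 7.66 for ERF1-3, and ELF5A-1 had a median of 7.24. ERF1-1 exceeded ERF1-3 in 13 libraries and ERF1-3 exceeded ELF5A-1 in 10, so the scarce genes overlapped. Of all genes tested, 99.2% had a mean below that of AT5G60390, 95.1% to 96.7% below those of eEF2 and the other eEF1A genes, and 50.5% to 68.4% below those of the 3 scarce genes.

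**Figure D1:**
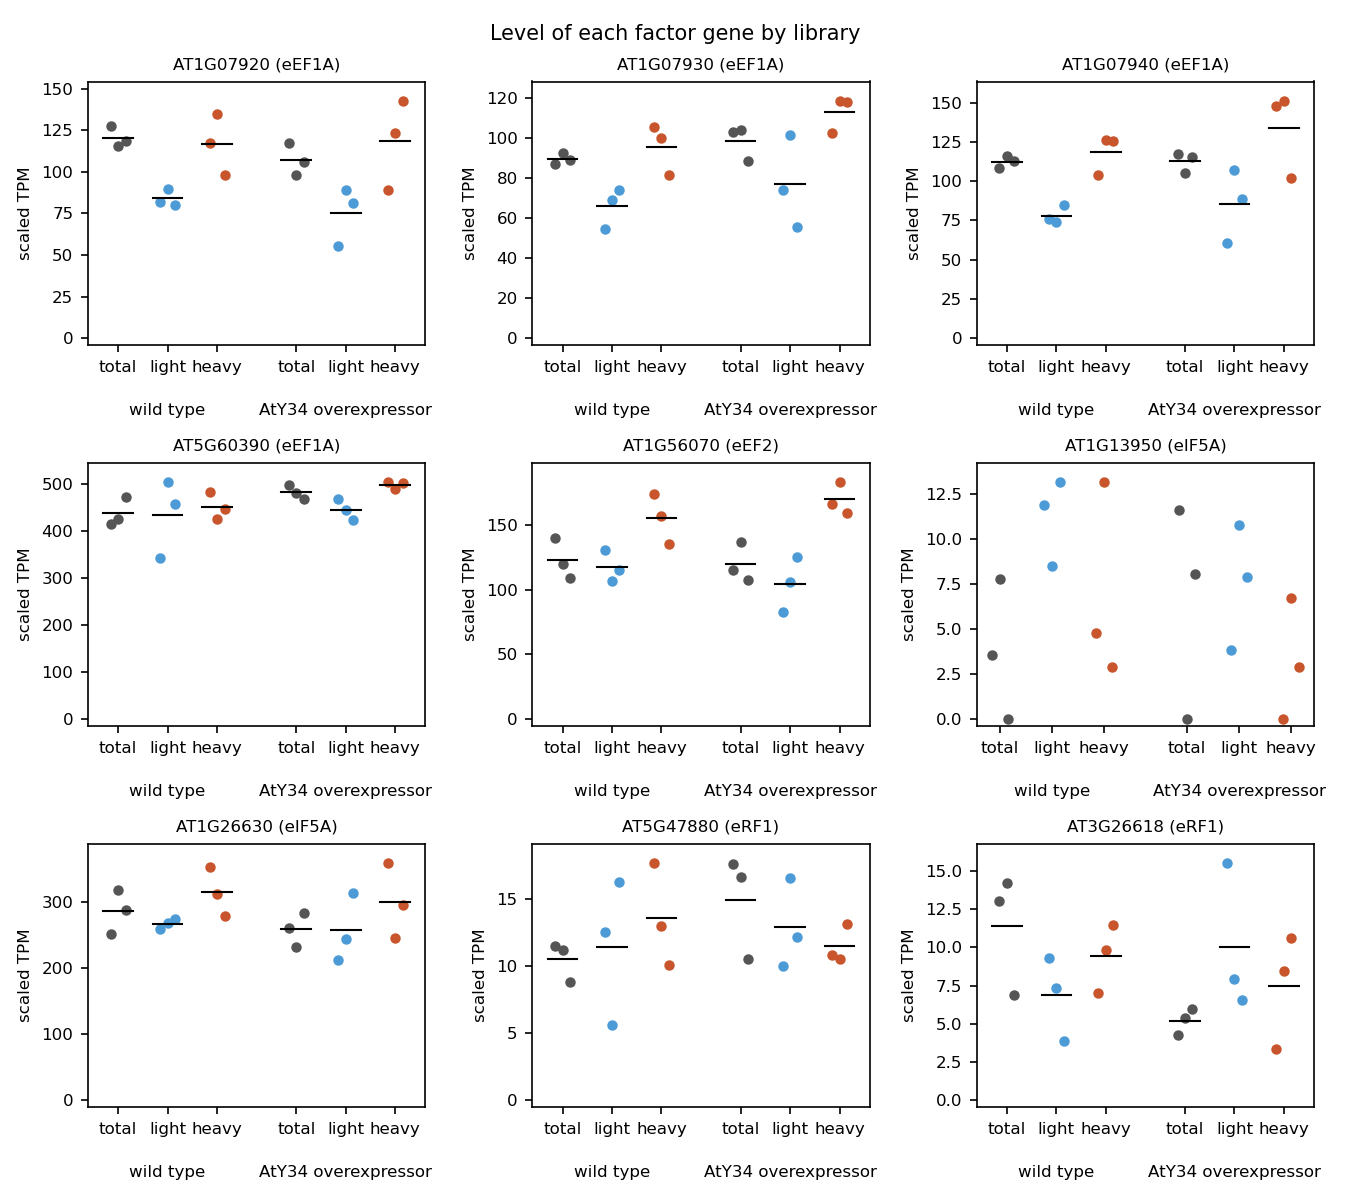
Level of each of the 9 genes in scaled TPM (vertical axes, which include 0) in every library, by line and RNA fraction; points are libraries and bars are means of 3 libraries, left out for ELF5A-1 (AT1G13950), which was listed at 0 in 3 libraries. The light polysome points of the 3 eEF1A genes on chromosome 1 lie below the other fractions in wild type, while in the AtY34 line those of AT1G07930 and AT1G07940 reach up to 102 and 107 and overlap with total RNA, and all 6 heavy polysome points of eEF2 (AT1G56070) lie above all 6 light polysome points.

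Among the 9 genes, 4 passed the test between heavy and light polysomes averaged over both lines, all of them higher in heavy polysomes: the 3 eEF1A genes on chromosome 1 and the eEF2 gene. Their log2 fold changes ran from 0.55 to 0.63. The 3 eEF1A genes can share reads as near-identical copies, so their calls may not be separate results. In this comparison 4.68% of all genes tested were called, 1.88% as higher and 2.8% as lower. Among the 4370 genes averaging 20 scaled TPM or more 15.4% were called, 6.89% as higher. The median log2 fold change of the 9 genes was 0.23, against -0.06 over all genes and -0.05 over the abundant ones. The test was limma on log2(scaled TPM + 1), two-sided, with Benjamini-Hochberg adjustment over all genes tested and a threshold of 0.05; fold changes are on this scale and understate changes of scarce genes. The summed green tissue markers ran from 9191 to 12040 scaled TPM in the light polysomes of both lines and from 8607 to 10350 in the heavy ones; their part in these calls was not tested.

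AT1G07940, an eEF1A gene, stood at 75.9, 73.7 and 84.6 scaled TPM in the light polysomes of wild type and at 104, 126.5 and 126 in the heavy polysomes. The AtY34 line had 60.9, 107 and 88.5 in light polysomes and at 148, 151.5 and 102 in heavy polysomes. The wild type groups did not overlap, whereas in the AtY34 line the lowest heavy library lay below the highest light one. Averaged over both lines, AT1G07940 rose by a log2 fold change of 0.63 from light to heavy polysomes (SE 0.15, limma adjusted p = 0.0199). Its total RNA levels were close together, at 108.5, 116 and 113 in wild type and 118, 105.5 and 115 in the AtY34 line, all within the range of the heavy polysomes.

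AT1G07930 measured 54.7, 69.0 and 74.2 scaled TPM in wild type light polysomes and 106, 100.1 and 81.6 in heavy polysomes. The corresponding AtY34 values were 73.9, 102 and 55.8 in light polysomes and 103, 119 and 118 in heavy polysomes. Every heavy library lay above every light library of its own line, narrowly so for 1 light library of the AtY34 line. AT1G07930 rose by 0.56 on the log2 scale over both lines (SE 0.15, limma adjusted p = 0.0367).

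For AT1G07920 the wild type values were 81.9, 90.0 and 80.3 scaled TPM in light polysomes and 117, 134.5 and 97.9 in heavy polysomes. The AtY34 line gave 55.3, 89.2 and 81.1 in light polysomes and 89.3, 123 and 143 in heavy polysomes. The groups of each line were separate, but in the AtY34 line the nearest heavy and light libraries almost touched. Over both lines the log2 fold change of AT1G07920 was 0.55 (SE 0.15, limma adjusted p = 0.0409). Near-identical eEF1A copies can share reads, and how the authors' counting divided them is not stated in the labels, so the division of eEF1A among its 4 genes is uncertain.

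LOS1, which encodes eEF2, was the 1 gene of the 9 whose heavy and light libraries were separate across both lines. In wild type it measured 131, 107 and 115 scaled TPM in light polysomes and 174, 157 and 136 in heavy polysomes. For the AtY34 line the values were 82.5, 106 and 125 in light polysomes and 167, 184 and 159.6 in heavy polysomes. All 6 heavy libraries lay above all 6 light libraries, which was true in this direction of 1.86% of genes tested. The eEF2 mRNA rose by 0.56 on the log2 scale over both lines (SE 0.13, limma adjusted p = 0.021). Against total RNA, at 139.9, 120.1 and 109 in wild type and 116, 137 and 107.5 in the AtY34 line, heavy polysomes were 0.42 higher on the log2 scale over both lines (SE 0.13), which did not pass (limma adjusted p = 0.152). With TPM as deposited this difference was 1.04 and passed (limma adjusted p = 0.000455), where the median of all genes lay 0.52 above 0.

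Within single lines none of the 9 genes passed between heavy and light polysomes, where limma called 0.957% of genes for wild type and 0.689% for the AtY34 line. At an unadjusted p under 0.05 there were 4 of the 9 in each line, among 11.7% and 11.9% of all genes. In wild type 5 of the 9 were higher in heavy polysomes without overlap, among 7.81% of all genes, and in the AtY34 line 4 of the 9, among 8.36%. When each of the 12 light and heavy libraries was left out in turn, AT1G07940 passed in 11 fits (adjusted p = 0.0503 without AtY34 heavy replicate 1) and eEF2 in 8 (up to 0.054, without wild type heavy replicate 1). AT1G07920 and AT1G07930 passed in 3 fits each, with adjusted p of up to 0.113 without AtY34 heavy replicate 3 and up to 0.0958 without AtY34 light replicate 3.

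**Figure D2:**
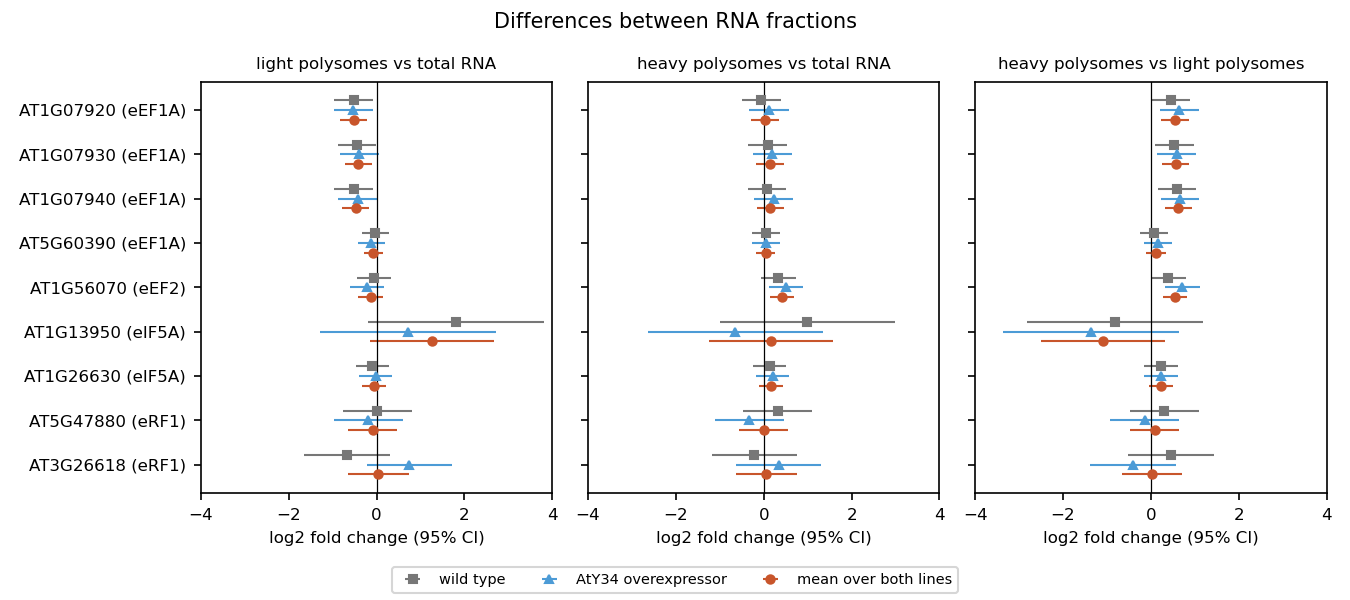
Log2 fold change between RNA fractions (horizontal axes) for each of the 9 genes, with 95% confidence intervals from limma, for wild type, the AtY34 overexpressor and averaged over both lines. In the comparison of heavy with light polysomes the intervals of the 3 eEF1A genes on chromosome 1 and of eEF2 averaged over both lines lie above 0, while the intervals of ELF5A-1 (AT1G13950) are the widest.

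The most abundant eEF1A gene, AT5G60390, did not pass between heavy and light polysomes. Its wild type values were 343, 505 and 457 scaled TPM in light polysomes and 484, 426 and 446 in heavy polysomes, so the groups overlapped. The AtY34 values were 468, 444 and 424 in light polysomes and 505.5, 489 and 502 in heavy polysomes, without overlap. Its log2 fold change over both lines was 0.12 (95% interval -0.10 to 0.34), with a limma adjusted p of 0.623. Whether this differed from the change of the other eEF1A genes was not tested.

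Within each library, AT5G60390 was set against the mean of the 3 eEF1A genes on chromosome 1, a ratio that does not depend on the scaling factor. This ratio was chosen after the values were seen and is given as a description. In wild type it was 3.87, 3.93 and 4.42 in total RNA, 4.85, 6.51 and 5.73 in light polysomes, and 4.45, 3.54 and 4.39 in heavy polysomes. The 3 light libraries were the highest of the wild type. In the AtY34 line it was 4.42, 4.69 and 4.54 in total RNA, 7.38, 4.47 and 5.65 in light polysomes, and 4.46, 3.73 and 4.14 in heavy polysomes. Light libraries 1 and 3 were high there too, while light library 2 lay among the total RNA values. Put as a share, AT5G60390 made up 57.5% ± 1.76 (SD, n = 3) of eEF1A TPM in wild type total RNA, 65.3% ± 3.35 in light polysomes and 57.7% ± 3.12 in heavy polysomes. The AtY34 shares were 60.3% ± 0.704, 65.4% ± 5.63 and 57.7% ± 2.2 (SD, n = 3).

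**Figure D3:**
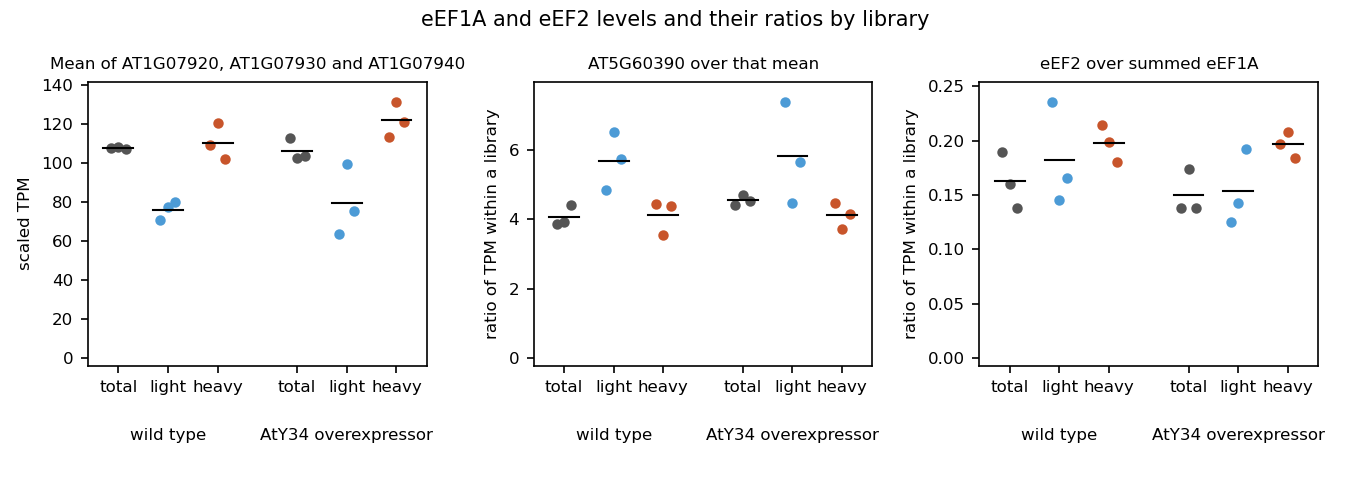
Mean level of AT1G07920, AT1G07930 and AT1G07940 in scaled TPM (left), AT5G60390 divided by that mean within each library (middle) and eEF2 divided by summed eEF1A within each library (right), by line and fraction; points are libraries, bars are means of 3 libraries and vertical axes include 0. On the left the 6 light libraries lie at 63.4 to 99.4, with AtY34 replicate 2 the highest and close to total RNA, and in light polysomes the middle ratio reaches 6.51 for wild type and 7.38 for the AtY34 line.

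Summing the 4 eEF1A genes removes the uncertainty of how reads were divided among them. Summed eEF1A in wild type was 739, 749 and 793 scaled TPM in total RNA, 556, 737 and 696 in light polysomes, and 811, 787 and 752 in heavy polysomes. The sums of the AtY34 line were 837, 788 and 779 in total RNA, 658, 742.5 and 649.8 in light polysomes, and 845, 883 and 865 in heavy polysomes. In both lines the 3 light libraries were the lowest, and in the AtY34 line the heavy libraries lay above the other fractions. The order of light polysomes and total RNA turned with the scaling, from log2 differences of -0.21 (wild type) and -0.23 (AtY34) to 0.25 for each line with TPM as deposited. The difference of heavy from light polysomes was 0.25 on the log2 scale in wild type (SE 0.13) and 0.34 in the AtY34 line (SE 0.06). Over both lines it was 0.30, with an exact permutation p of 0.005 (the lowest possible), adjusted to 0.03 over 12 comparisons. By the same test light polysomes against total RNA gave -0.22 (adjusted p = 0.03), the order that turned with the scaling. Heavy polysomes against total RNA gave 0.08 (adjusted p = 0.133). Within 1 line this test cannot give a p below 0.1. The eEF2 level divided by summed eEF1A ran from 0.138 to 0.189 in wild type total RNA and from 0.1805 to 0.215 in heavy polysomes. For the AtY34 line that ratio ran from 0.138 to 0.174 and from 0.184 to 0.208. The heavy libraries were thus separate from total RNA in the AtY34 line and overlapped with it in wild type. The light libraries ran from 0.145 to 0.236 in wild type, with 1 above every heavy library, and from 0.1255 to 0.193 in the AtY34 line, with 1 inside the heavy range.

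The transcript table divided AT5G60390 between 2 transcripts, with another, AT5G60390.2, at 0 in all libraries. AT5G60390.1 accounted for 24.5% to 50.3% of the gene's TPM in wild type total RNA, 40.6% to 82.5% in light and 36% to 55.7% in heavy polysomes. AtY34 ranges were 21.4% to 44.6%, 47% to 67.1% and 40.1% to 53.5%. The ranges overlapped except between total RNA and light polysomes of the AtY34 line. AT1G07920, eEF2, ELF5A-1 and ERF1-3 had 1 listed transcript each.

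None of the 9 genes passed between polysomes and total RNA. Comparing heavy polysomes with total RNA, limma called 0 of the 9 genes in wild type, the AtY34 line and their average, against 0.129%, 0.0644% and 0.947% of all genes. At an unadjusted p under 0.05 there were 0, 1 and 1 of the 9, among 9.86%, 8.9% and 13.1% of all genes. For light polysomes against total RNA it also called 0 of the 9 in each, against 0.104%, 0.109% and 0.456% of all genes, with 3, 1 and 3 of the 9 at an unadjusted p under 0.05 (9.39%, 8.39% and 11.9% of all genes). In wild type the 3 eEF1A genes on chromosome 1 were lower in light polysomes than in total RNA without overlap, as were 5.61% of all genes. In the AtY34 line AT1G07920 and AT5G60390 were lower without overlap (4.73% of all genes were), while AT1G07930 and AT1G07940 overlapped with total RNA. ERF1-3 was higher in light polysomes of that line without overlap, as were 6.34% of all genes. Averaged over both lines the log2 fold changes of AT1G07920, AT1G07930 and AT1G07940 were -0.52, -0.42 and -0.48, with limma adjusted p from 0.158 to 0.271. These differences depend on the scaling: with TPM as deposited AT1G07920, AT1G07930 and AT1G07940 changed by -0.06, 0.05 and -0.02. The median of all genes then lay 0.45 above 0, against 0.10 with scaling, and all 3 genes lay below that median either way. AT5G60390 turned from -0.07 to 0.40, which passed at a limma adjusted p of 0.0469 (as did 1177 of the 20171 genes), and to 0.09 with quantile normalization. For heavy polysomes against total RNA 3, 5 and 6 of the 9 genes passed with TPM as deposited, all higher, among 3.91%, 3.54% and 17.7% of all genes, and the median of all genes then lay 0.52 above 0 in each line.

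FBR12 carried almost all of the eIF5A measured by the 2 genes here. It measured 251.5, 319 and 289 scaled TPM in wild type total RNA, 259.7, 268 and 274 in light polysomes and 353, 312 and 279.7 in heavy polysomes. The AtY34 values were 261, 232 and 284 in total RNA, 213, 244 and 315 in light polysomes and 360.4, 246 and 296 in heavy polysomes. Heavy and light polysomes were separate in wild type and overlapped in the AtY34 line. The log2 fold change of FBR12 over both lines was 0.23 (95% interval -0.04 to 0.50, limma adjusted p = 0.378), which did not pass.

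ELF5A-1, the other eIF5A gene, was scarce and listed at 0 in 3 of the 18 libraries, so no mean is given. In wild type its values were 3.58, 7.77 and 0 in total RNA, 11.9, 8.48 and 13.2 in light polysomes and 4.77, 13.2 and 2.9 in heavy polysomes. In the AtY34 line they were 11.6, 0 and 8.07 in total RNA, 3.85, 10.8 and 7.88 in light polysomes and 0, 6.7 and 2.89 in heavy polysomes. No light polysome library was at 0, and in wild type all 3 light libraries lay above the total RNA libraries, as was so for 7.63% of all genes. In the AtY34 line light polysomes and total RNA overlapped. None of these differences passed; the smallest limma adjusted p among the fraction comparisons of ELF5A-1 was 0.436. A further eIF5A gene, ELF5A-3 (AT1G69410), which is not among the 9, had a mean of 57.8 scaled TPM.

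ERF1-1 and ERF1-3 encode the release factor eRF1, and neither passed between fractions. A further eRF1 gene, ERF1-2 (AT1G12920), is not among the 9. It had a mean of 15.5 scaled TPM, against 12.4 for ERF1-1 and 8.4 for ERF1-3. ERF1-1 measured 11.5, 11.2 and 8.75 scaled TPM in wild type total RNA, 12.5, 5.56 and 16.2 in light polysomes and 17.7, 12.9 and 10.1 in heavy polysomes. In the AtY34 line it measured 17.6, 16.6 and 10.5 in total RNA, 9.95, 16.6 and 12.1 in light polysomes and 10.8, 10.5 and 13.1 in heavy polysomes. Every pair of these fractions overlapped within each line. The log2 fold change of ERF1-1 from light to heavy polysomes over both lines was 0.08 (95% interval -0.47 to 0.64).

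ERF1-3 was the 1 gene of the 9 that was lower in AtY34 total RNA without overlap. In total RNA it measured 13.1, 14.2 and 6.86 scaled TPM in wild type and 4.28, 5.41 and 5.96 in the AtY34 line, and 4.21% of all genes were separate in this direction. Its log2 fold change there was -0.95 (95% interval -1.92 to 0.03), which did not pass (limma adjusted p = 0.631). In light polysomes the order was not kept, with 9.31, 7.38 and 3.88 in wild type and 15.6, 7.94 and 6.55 in the AtY34 line. In heavy polysomes the values were 7, 9.81 and 11.5 in wild type and 3.34, 8.44 and 10.6 in the AtY34 line, again overlapping. The change from total RNA to light polysomes differed between the lines by 1.42 on the log2 scale (SE 0.65), and this did not pass either (limma adjusted p = 0.917). From light to heavy polysomes over both lines its log2 fold change was 0.02 (95% interval -0.67 to 0.71).

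None of the 9 genes was called between the AtY34 overexpressor and wild type. Limma called 0 of the 9 in total RNA, light polysomes and heavy polysomes, against 0.0793%, 0.0347% and 0.0198% of all genes, and 0 of the 9 had an unadjusted p under 0.05, among 8.13%, 4.59% and 4.47% of all genes. For eEF2 the log2 fold change was -0.03 in total RNA (95% interval -0.43 to 0.36), -0.19 in light polysomes (-0.58 to 0.21) and 0.13 in heavy polysomes (-0.26 to 0.52). The intervals of AT5G60390 were -0.17 to 0.46 in total RNA, -0.26 to 0.36 in light and -0.17 to 0.46 in heavy polysomes. The intervals of ELF5A-1 were far wider, from -3.13 to 0.86 in heavy polysomes. In heavy polysomes AT5G60390 was higher in the AtY34 line without overlap, as were 4.65% of all genes. Summed eEF1A was separate there too, at 845 to 883 scaled TPM against 752 to 811 in wild type. Its log2 difference of 0.14 did not pass (exact permutation adjusted p = 0.133), where the unadjusted p cannot fall below 0.1. Summed seed storage mRNAs (CRA1, SESA1 and CRU3) ran from 13.4 to 83.6 scaled TPM in the total RNA of wild type and from 0 to 9.54 in that of the AtY34 line. The sums overlapped in light polysomes (3.03 to 37 against 0 to 4.17) and in heavy polysomes (1.99 to 81.9 against 0 to 5.18). SESA1 was at 0 in 12 of the 18 libraries, and the part of these mRNAs in these values was not tested.

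**Figure D4:**
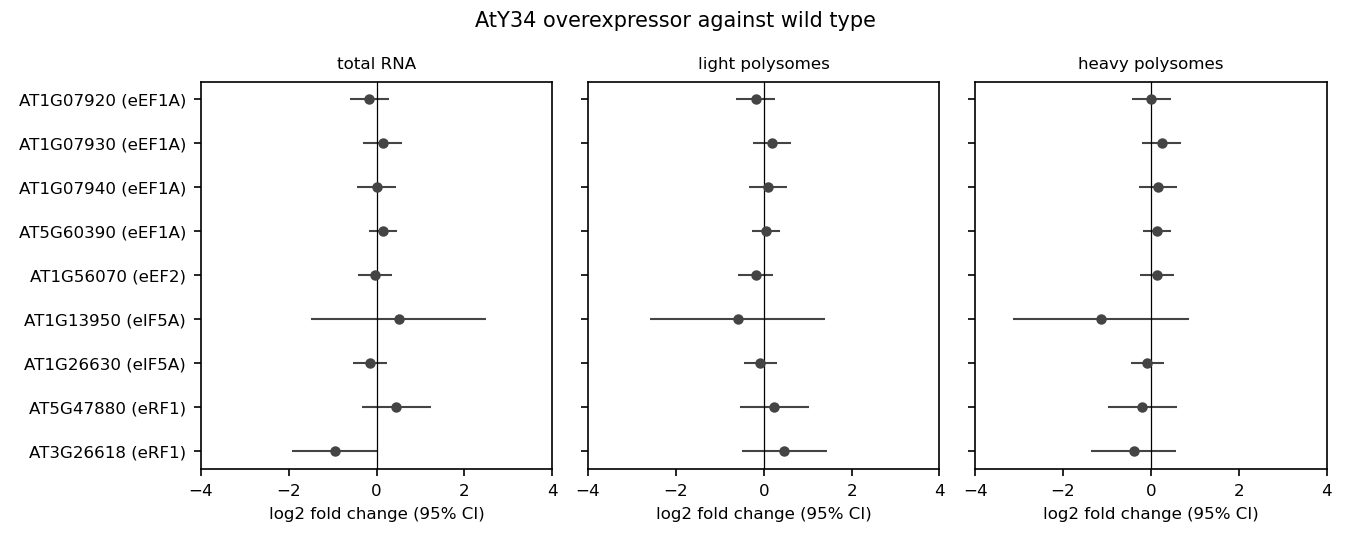
Log2 fold change of the AtY34 overexpressor against wild type (horizontal axes) for each of the 9 genes in total RNA, light polysomes and heavy polysomes, with 95% confidence intervals from limma. Every interval includes 0; that of ERF1-3 (AT3G26618) in total RNA runs from -1.92 to 0.03.

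The change between fractions was also compared between the lines as an interaction. Limma called 0 of the 9 genes for heavy polysomes against total RNA, for light polysomes against total RNA and for heavy against light polysomes, where 0.00496%, 0.00992% and 0% of all genes were called. At an unadjusted p under 0.05 there were 0, 1 and 0 of the 9, the 1 being ERF1-3, among 5.07%, 5.4% and 3.43% of all genes. For eEF2 the log2 difference of heavy from light polysomes was 0.40 in wild type against 0.71 in the AtY34 line, and the difference of 0.32 had a 95% interval from -0.24 to 0.87. For AT1G07940 that difference was 0.06 (-0.56 to 0.68).

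Other genes of protein synthesis were read from 3 lists. Of 16 further cytosolic elongation, termination and recycling genes 15 were tested, and limma called 0 of them in each of the 15 comparisons. At an unadjusted p under 0.05 there were 0 to 5 of them, with the most between light polysomes and total RNA. The counts there were 4 of 15 for wild type, 4 for AtY34 and 5 for their average. The shares of all genes were 9.39%, 8.39% and 11.9%. For that average 8 of the 15 were higher in light polysomes and 7 lower. Between heavy and light polysomes over both lines there was 1 of the 15, against 17.8% of all genes. Among them the eIF5A gene ELF5A-3 had a log2 fold change of -0.37 and the eRF1 gene ERF1-2 (AT1G12920) one of -0.56 in that comparison. The median of this list was -0.05, against 0.23 for the 9 genes. Both sets were chosen with earlier results of these data known, so this contrast is only a description. Of 33 initiation factor genes 1 rose and 1 fell there, where 4.68% of all genes were called: EIF4G (AT3G60240), the scaffold of the cap-binding complex, by 0.64 (SE 0.18, limma adjusted p = 0.0473), and AT5G54760, which fell by 0.70 (SE 0.18, limma adjusted p = 0.0287). Of 9 organellar factor genes 2 rose, RABE1b (AT4G20360), which encodes the plastid counterpart of eEF1A, by 0.73 (SE 0.15, limma adjusted p = 0.00874), and emb2726 (AT4G29060) by 0.87 (SE 0.20, limma adjusted p = 0.0158).

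The 3 eEF1A genes on chromosome 1 varied together over the 18 libraries, with Pearson r of 0.65, 0.68 and 0.70 among them on log2(scaled TPM + 1). AT5G60390 had r of 0.17 with AT1G07920, 0.60 with AT1G07930 and 0.26 with AT1G07940. The eEF2 gene had r of 0.61, 0.48 and 0.64 with AT1G07920, AT1G07930 and AT1G07940 and 0.08 with AT5G60390. These correlations span the 6 groups, share the libraries and their scaling, and are descriptions. Among the eEF1A genes they also depend on how shared reads were divided, and the part of this was not tested. Among 4364 genes averaging 20 scaled TPM or more, the 5 most like eEF2 were GAPC1 (r 0.87), AT1G63770 (0.86), HA1 (0.86), CDC48 (0.85) and CYS1 (0.85). The 5 most like summed eEF1A were ADK1 (0.88), JAL34 (0.87), COL4 (0.87), PATL2 (0.83) and CP12-2 (0.82).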

How the data were processed

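Total RNA and light and heavy polysome RNA were sequenced from stranded libraries after rRNA depletion, per the labels' protocols. The authors deposited TPM per gene and per transcript; the table names contain salmon. Tools named in the submitters' processing notes are FastQC, MultiQC and STAR, without versions, with the TAIR10 build; how near-identical copies were counted is not stated there. Sample columns whose names match no single label (18 in the gene table, 54 in the transcript table) were left out.

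Each library's nuclear TPM were scaled by its median ratio to the geometric mean of 9431 genes that reached a TPM of 1 in all 18 libraries. Genes reaching a TPM of 1 in 3 or more libraries entered limma (3.58.1, R 4.3.3) on log2(scaled TPM + 1). The model had group means, a variance prior that follows the mean level, 12 residual degrees of freedom and 15 comparisons. The fit was tested on simulated data with changes larger than those called here and in a single-line comparison. That simulation therefore does not bear on the calls averaged over both lines. Names and neighbours came from a RefSeq gene table of TAIR10.1. All 9 genes are described. Of the lists, every gene past the threshold is named; genes most alike are the 5 with the highest Pearson r. The members and lists were chosen with earlier results of these data known. Alternatives were another pseudocount (0.1), no filter, no scaling, quantile normalization, a replicate block, only the libraries compared, transcript sums and leaving out each library.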

Additional observations from a re-analysis of the deposited data

How the results depend on the processing

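The count of 4 genes called between heavy and light polysomes over both lines was 2 when only the compared libraries were fitted, where 4.94% of genes tested were called. It was 1 to 4 when each library was left out. AT1G07940 lost its call only without AtY34 heavy replicate 1 (adjusted p = 0.0503). The eEF2 gene lost it without wild type light replicate 2 or 3, wild type heavy replicate 1 or AtY34 light replicate 1 (adjusted p 0.0504 to 0.054). AT1G07920 and AT1G07930 lost it with only the compared libraries (0.0699 and 0.0672) and in 9 of 12 leave-outs, keeping it without wild type heavy replicate 3, AtY34 light replicate 2 or AtY34 heavy replicate 1; over 18 alternatives their adjusted p ran from 0.0173 to 0.113 and from 0.00922 to 0.0958. All 4 kept their direction in all 18. With TPM as deposited, heavy polysomes against total RNA gave 3 called genes in wild type, 5 in the AtY34 line and 6 over both (789, 714 and 3579 of all genes, against 26, 13 and 191), and light polysomes against total RNA over both lines gave 1 (1177 against 92), AT5G60390 at 0.40. The summed eEF1A level then changed by 0.67 and 0.74 (heavy against total, wild type and AtY34), 0.25 and 0.25 (light against total), 0.42 and 0.49 (heavy against light) and 0.19 (AtY34 against wild type, heavy), against 0.13 and 0.21 for heavy against total under quantile normalization. The unscaled median of all genes lay 0.52 above 0 for heavy polysomes against total RNA.

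Of 45 pairs of same-numbered libraries none had deviations correlated above 0.1 (-0.08 to 0.06). Their median r was 0.0097, against -0.0042 for pairs with different numbers, and 11 of 18 libraries correlated best with their own number. Correlations this low cannot settle whether the numbers pair the samples, so the main fit treated the libraries as unpaired. With the replicate block the count of called genes was 4 for heavy against light polysomes over both lines, where 4.55% of all genes were called. It was 0 in the other 14 comparisons, where 0% to 0.962% of all genes were called. Depth is unknown, so no detection limit is given for the genes listed at 0.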
